A study of Mus musculus with 18 samples.

Results

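Tbx1, Pitx1, Pitx3, Tcf21, Msc and Isl1 are transcription factor genes known for their place in the muscle programme of the cranial and pharyngeal mesoderm. They were chosen by name, as regulators of head muscle, with earlier results of these data known. They are 6 of the 47728 genes counted in bulk, and all 6 passed the filter on low counts. Head muscle forms from mesoderm that never enters the somites, and it starts its myogenic genes without the Pax3 input that somitic muscle uses. In the mouse, Tbx1 acts early in pharyngeal arch mesoderm, Tcf21 and Msc are basic helix-loop-helix factors needed together for the chewing muscles, and Isl1 marks cardiopharyngeal progenitors that give heart and lower face muscle. Several of them also work elsewhere: Pitx1 sets hindlimb identity, Pitx3 serves lens, midbrain neurons and differentiating muscle of trunk and limb, Msc is found in limb myoblasts and satellite cells, and Isl1 is needed in motor and sensory neurons.

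RNA was sequenced in bulk from 15 mouse libraries, 3 in each of 5 groups, to set progenitors of pluripotent stem cell (PSC) origin beside progenitors sorted from tissue. The groups iPax7 and iPax3 are ES-derived progenitors from embryoid bodies, sorted as Vcam1+ Flk1- cells and expanded for 3 passages with doxycycline (Dox) and the growth factor bFGF. Emb and Fet are freshly sorted myoblasts of E10.5 embryos and E14.5 fetuses of the strain labelled My5Cre Rosa26YFP, a Cre driver with a YFP reporter. The sort gates, the part of the embryo taken and any pooling of animals were not given in the sources used here. Neo holds satellite cells of newborn Pax7-ZsGreen mice, taken at postnatal day 3 from muscles of the hindlimb. Droplet single-cell data covered iPax3 cells and cells of Pax7-ZsGreen adults (tibialis anterior, age 3 months), 1 sample of each. Dox and bFGF were given to all PSC-derived cells and to no tissue group that the labels describe, so culture and origin cannot be told apart.

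Bulk libraries held 516504 to 56275318 counts. Levels are CPM, counts scaled to a library total of 1000000 after TMM adjustment. In bulk RNA, fewer cells of a type and less RNA per cell cannot be told apart. Some libraries stood apart. In iPax7 replicate 1 the summed level of 10 myogenic markers was 44.4 CPM, against 1542 and 1759 CPM in the other iPax7 libraries, and 8 pluripotency markers summed to 4499 CPM, against 12.5 and 7.68 CPM. Pax7, the induced factor of these cells, stood at 0.989 CPM (27 counts) there, against 111 and 349 CPM, so that library was low in the factor its label names. Emb replicate 1 had 14400 genes at 1 CPM or more, against 10191 and 10352 in the other Emb libraries, and Fet replicate 1 was the library of 516504 counts. All Neo libraries were low in Pax7, the gene of their reporter (0.495, 4.08 and 5.12 CPM), and high in endothelial markers, which summed to 16.8 to 52.8 CPM in Emb, 268 to 568 CPM in Fet and 2294 to 3034 CPM in Neo. A log2 fold change is given ± its approximate standard error, and a mean CPM ± SD (3 libraries, or 6 and 9 in the pooled contrast). Nothing in the labels says that replicates are separate cultures or animals. A p-value thus sets a difference between groups only against the spread of these libraries, and that spread may be technical.

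The 6 genes split in direction between PSC-derived and tissue-derived cells. Tbx1 and Pitx3 were higher in iPax7 and iPax3, pooled, than in Emb, Fet and Neo, pooled, and Pitx1, Tcf21, Msc and Isl1 were lower. In this contrast the quasi-likelihood test of edgeR, adjusted by Benjamini-Hochberg, called 28.1% of 17571 genes at an adjusted p under 0.05, 16.4% higher and 11.7% lower, and it called all 6 of these genes, 2 higher and 4 lower. Tcf21 had 0 counts in all PSC-derived libraries and passed the low-count filter only through tissue libraries. Its direction was thus fixed once it entered the test, and its call adds little to the count of 6. Pitx1, Msc and Isl1 would not have passed the filter on their PSC-derived libraries alone, nor Tbx1 on its tissue libraries alone. The count of 6 and its split by direction are therefore partly set by the filter and are not read as support. Without iPax7 replicate 1, Emb replicate 1 and Fet replicate 1 together the test called 5, and without the Neo group it called 4. Both of these settings were chosen after the data were seen, and the share of all genes called in them is not given here. The contrast shares its libraries with each single comparison given below.

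**Figure D1:**
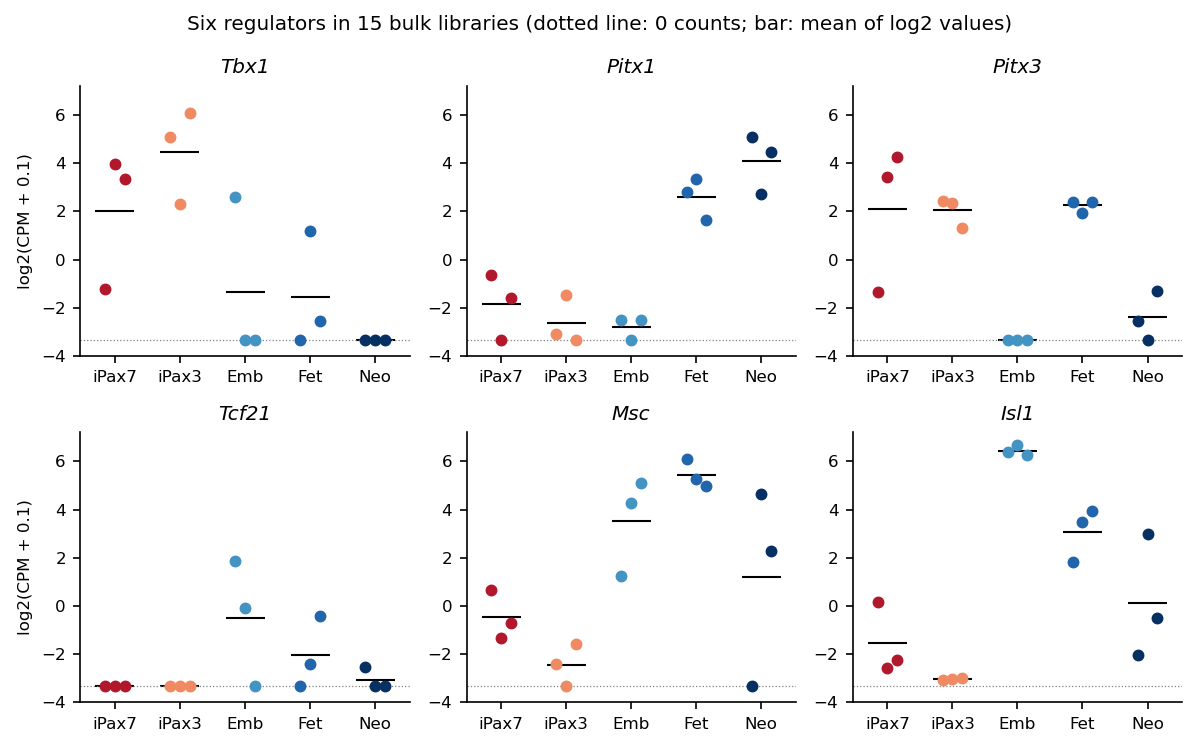
Level of each of the 6 genes, as log2(CPM + 0.1), in every bulk library of iPax7, iPax3, Emb, Fet and Neo (points, 3 libraries a group, replicates 1 to 3 from left to right), with the mean of the log2 values as a bar and 0 counts as a dotted line. Tbx1 stood highest in iPax3, Isl1 in Emb, Msc in Fet and Pitx1 in Neo, Pitx3 had 0 counts in all Emb libraries, and Tcf21 had 0 counts in all 6 PSC-derived libraries.

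Tbx1 (ENSMUSG00000009097, GRCm38 chromosome 16, 18580979 to 18590671, minus strand) encodes the T-box factor of pharyngeal mesoderm. Its level was 0.330, 15.3 and 10.1 CPM in iPax7 and 33.9, 4.77 and 66.8 CPM in iPax3 (replicates 1 to 3), against 5.87, 0 and 0 CPM in Emb, 0, 2.16 and 0.0713 CPM in Fet and 0 CPM in all Neo libraries. Every iPax3 library lay above every Fet and Neo library, while iPax3 replicate 2 lay below Emb replicate 1. The only iPax7 library under 1 CPM was replicate 1, the library with few myogenic transcripts. Over the contrast Tbx1 averaged 21.9 ± 24.9 CPM in the 6 PSC-derived libraries and 0.901 ± 2.00 CPM in the 9 tissue-derived libraries (log2 fold change 6.30 ± 1.57, adjusted p = 0.00824). This fitted value averages over Neo, where the gene had 0 counts, so its size depends on the prior count and is no bound. The call stood in 15 of 15 fits without 1 library and was lost when Neo was left out (3.64, adjusted p = 0.0899).

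Against Neo alone, with a floor of 3 counts over the Neo libraries, Tbx1 was at least 67.7-fold higher in iPax7 (adjusted p = 0.0475) and at least 268-fold higher in iPax3 (adjusted p = 0.0206). These calls were not firm: they stood in 1 and 2 of the 6 fits that left out 1 library of the groups compared, with adjusted p up to 0.134 and 0.0686. Without Neo replicate 1 the limits were 27.1-fold in iPax7 and 107-fold in iPax3. They were 105-fold without iPax7 replicate 1, 32.8-fold without iPax7 replicate 2 and 169-fold without iPax3 replicate 3. Against Emb, Tbx1 passed in neither iPax7 (2.14 ± 1.92, adjusted p = 0.490) nor iPax3 (4.17 ± 2.09, adjusted p = 0.185). All 76 Tbx1 counts of Emb came from replicate 1, and without that library both passed (adjusted p = 0.0281 in iPax7 and 0.0146 in iPax3), with Emb then at 0 counts. Against Fet, it passed in neither iPax7 (3.16 ± 2.06, adjusted p = 0.496) nor iPax3 (5.19 ± 2.24, adjusted p = 0.176), and in iPax3 it passed when these 2 groups alone were fitted (4.89, adjusted p = 0.0137).

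Pitx3 (ENSMUSG00000025229, chromosome 19, 46135685 to 46148326, minus strand) encodes a paired-like homeodomain factor expressed in differentiating myoblasts. Its level was 0.293, 10.7 and 19.1 CPM in iPax7 and 5.36, 5.05 and 2.35 CPM in iPax3, against 0 CPM in all Emb libraries, 5.19, 3.69 and 5.204 CPM in Fet and 0.0707, 0 and 0.301 CPM in Neo. The value of Fet replicate 1 rests on 3 counts. All PSC-derived libraries lay above all Emb libraries, the 3 iPax3 libraries overlapped Fet, and iPax7 replicate 1 lay below Neo replicate 3. Over the contrast Pitx3 averaged 7.13 ± 6.81 CPM in PSC-derived libraries and 1.61 ± 2.36 CPM in tissue-derived libraries (5.53 ± 1.09, adjusted p = 0.00186). That call stood in 15 of 15 fits without 1 library and under all 6 other alternatives, and its size depends on the prior count because Emb had 0 counts.

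Set against single stages, Pitx3 was at least 130-fold higher in iPax7 than in Emb (adjusted p = 0.00784) and at least 65.0-fold higher in iPax3 than in Emb (adjusted p = 0.00968). Both calls stood in 6 of 6 fits without 1 library. The limits without Emb replicate 2 were 78.3-fold in iPax7 and 39.2-fold in iPax3, and that of iPax7 was 202-fold without its replicate 1 and 83.6-fold without its replicate 3. Against Fet it did not pass in iPax7 (1.10 ± 1.42, adjusted p = 0.787) or iPax3 (-0.13 ± 1.4, adjusted p = 0.976), and standard errors of this size leave room for a several-fold difference either way. Against Neo it passed in iPax7 (6.56 ± 1.87, adjusted p = 0.0269) and iPax3 (5.33 ± 1.8, adjusted p = 0.0458), and these calls stood in 2 and 0 of 6 fits without 1 library. The exons of Pitx3 overlap those of Elovl3 on the other strand and the strand setting of the counting was not given; Elovl3 itself had 0 to 3 counts in every library.

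Pitx3 levels were set beside Myog, the myogenic differentiation factor, in the same libraries. Myog stood at 1.58, 563 and 517 CPM in iPax7 and 96.6, 72.4 and 30.4 CPM in iPax3, against 108, 610 and 784 CPM in Emb, 623, 310 and 387 CPM in Fet and 104, 212 and 86.7 CPM in Neo. The iPax7 library with little Myog was also the one with little Pitx3, and the lowest iPax3 library was the same for both genes. Emb libraries held Myog at 108 CPM or more with 0 Pitx3 counts.

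Promoters are shown for the members on which the contrast turned most firmly in each direction and that have an entry in the RefSeq table (4 of the 6 genes do), Pitx3 and Tbx1 as genes that were higher and Isl1 as a gene that was lower. Each window holds 300 bases, 250 before and 50 after the annotated start, on the minus strand of GRCm38.p6. Capitals mark matches to the E-box CAGCTG, a sequence that myogenic factors bind, and to TAATCC, the core bound by Pitx proteins. Both strands were searched, and no marked matches overlap in these windows. The windows are chr19:46148276-46148575 for Pitx3, chr16:18590622-18590921 for Tbx1 and chr13:116309639-116309938 for Isl1.
Pitx3: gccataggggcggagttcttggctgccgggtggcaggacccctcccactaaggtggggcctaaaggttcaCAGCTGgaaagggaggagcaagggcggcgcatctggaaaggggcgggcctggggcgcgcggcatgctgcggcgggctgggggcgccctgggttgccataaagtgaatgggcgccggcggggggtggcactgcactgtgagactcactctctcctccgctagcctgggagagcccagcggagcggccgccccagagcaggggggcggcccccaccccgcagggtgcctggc
Tbx1: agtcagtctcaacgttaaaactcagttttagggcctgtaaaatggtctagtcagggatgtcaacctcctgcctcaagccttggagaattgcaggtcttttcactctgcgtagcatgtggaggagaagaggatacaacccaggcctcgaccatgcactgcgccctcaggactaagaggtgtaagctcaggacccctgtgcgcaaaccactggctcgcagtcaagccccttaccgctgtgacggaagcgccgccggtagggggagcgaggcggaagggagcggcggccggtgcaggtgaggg
Isl1: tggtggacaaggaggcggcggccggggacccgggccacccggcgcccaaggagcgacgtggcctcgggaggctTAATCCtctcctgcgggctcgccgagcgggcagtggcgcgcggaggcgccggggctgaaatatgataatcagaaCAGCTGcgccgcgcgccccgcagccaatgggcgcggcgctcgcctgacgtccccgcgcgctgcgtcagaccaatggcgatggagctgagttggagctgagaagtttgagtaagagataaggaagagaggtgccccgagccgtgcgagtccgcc
The Pitx3 window held 1 CAGCTG match, which begins 180 bases before the start, and 0 TAATCC matches. The Isl1 window held 1 CAGCTG match, 103 bases before the start, and 1 TAATCC match, 177 bases before it. The Tbx1 window held 0 of either, as did a second Tbx1 window (chr16:18588850-18589149) that is not printed. The looser E-box CANNTG, with N any base, matched 2 times in the printed Tbx1 window and 0 times in the second. It matched 2 times in the Pitx3 window and 1 time in that of Isl1. Among all 32851 windows of the same length, 16.3% held CAGCTG, 72.3% held CANNTG and 7.06% held TAATCC, and genes of both directions carried CAGCTG here.

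Pitx1 (ENSMUSG00000021506, chromosome 13, 55825051 to 55836192, minus strand) encodes the homeodomain factor of mandible and hindlimb. Its exons overlap those of the antisense gene Gm47071, not analysed here, and of Gm28760 on the same strand, which had 0 counts in every library. Its level was 0.550, 0 and 0.228 CPM in iPax7 and 0.0175, 0.262 and 0 CPM in iPax3, against 0.0773, 0 and 0.0736 CPM in Emb, 6.92, 9.90 and 2.99 CPM in Fet and 34.2, 6.53 and 21.7 CPM in Neo. All PSC-derived and Emb libraries lay below all Fet and Neo libraries. Fet replicate 1 rests on 4 counts. Pitx1 averaged 0.176 ± 0.218 CPM in PSC-derived and 9.15 ± 11.6 CPM in tissue-derived libraries (-3.59 ± 1.18, adjusted p = 0.0313), a call that stood in 7 of 15 fits without 1 library and was lost without Neo (-1.90, adjusted p = 0.315) and without the 3 libraries that stood apart (-4.05, adjusted p = 0.0610).

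Single comparisons placed the low Pitx1 of PSC-derived cells against the later stages. It was lower than Neo in iPax7 (-6.30 ± 1.84, adjusted p = 0.0273) and in iPax3 (-7.72 ± 1.96, adjusted p = 0.0107). Leaving out 1 library of these groups kept 3 and 4 of 6 calls, with adjusted p up to 0.0970 and 0.0619. Against Fet it was lower in iPax3 (-6.07 ± 1.83, adjusted p = 0.0493), a call kept in 1 of 6 such fits, and did not pass in iPax7 (-4.64 ± 1.72, adjusted p = 0.154). Pitx1 did not pass against Emb in iPax7 (2.30 ± 1.73, adjusted p = 0.399) or iPax3 (0.87 ± 1.70, adjusted p = 0.766), with 15, 0 and 4 counts in iPax7, 1, 11 and 0 in iPax3 and 1, 0 and 1 in Emb. Among tissue stages Pitx1 was higher in Neo than in Emb (8.60 ± 2.10, adjusted p = 0.0100), a call kept in 6 of 6 fits without 1 library and under all 6 other alternatives. Neo libraries, from hindlimb, were also high in other markers: 10 fibroblast and connective tissue markers summed to 197 to 1944 CPM in PSC-derived libraries, 2987 to 3189 CPM in Emb, 31954 to 35869 CPM in Fet and 36075 to 109612 CPM in Neo, with each of the 10 at 1 CPM or more in all Neo libraries and 8 of them called higher in Neo than in Emb. Hindlimb mesenchyme markers differed from this: the sum of 6 ran from 0.184 to 3.15 CPM over the PSC-derived libraries, from 86.8 to 188 CPM in Emb, 51.6 to 67.4 CPM in Fet and 64.1 to 87.9 CPM in Neo, and 0 of the 6 were called in Neo against Emb (median log2 fold change -1.03). The part of either list in the Pitx1 result was not tested.

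Tcf21 (ENSMUSG00000045680, chromosome 10, 22817281 to 22820174, minus strand) encodes a basic helix-loop-helix factor of head muscle precursors that is also known from fibroblast and epicardial lineages. It had 0 counts in all 6 PSC-derived libraries. Tissue levels were low as well, with 46, 15 and 0 counts in Emb (3.55, 0.858 and 0 CPM), 0, 3 and 9 counts in Fet and 1, 0 and 0 counts in Neo. The range of the tissue groups thus reached 0 in each of them. Only tissue libraries took Tcf21 past the low-count filter, so it could be tested only as lower in PSC-derived cells. Tcf21 was at least 45.4-fold lower in PSC-derived than in tissue-derived libraries (adjusted p = 0.0132), counting 3 counts over the PSC-derived libraries as the floor. Emb replicate 1 held 46 of the 74 tissue counts, and without it the limit was 19.3-fold. DESeq2 did not call it (adjusted p = 0.0815). The edgeR call was also lost without Neo replicate 1 (adjusted p = 0.9998), a fit in which Neo, iPax7 and iPax3 were all at 0 counts. Against Emb alone Tcf21 was at least 34.4-fold lower in iPax7 (adjusted p = 0.0396) and at least 63.3-fold lower in iPax3 (adjusted p = 0.0250), calls kept in 1 and 3 of 6 fits without 1 library. DESeq2 called neither (adjusted p = 0.178 in iPax7 and 0.113 in iPax3), nor did the fit with the replicate number as a block (0.0842 in iPax7 and 0.0562 in iPax3). Without Emb replicate 1 the limits were 11.98-fold in iPax7 and 22.05-fold in iPax3.

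Msc (ENSMUSG00000025930, chromosome 1, 14753346 to 14755992, minus strand), also called MyoR, encodes a basic helix-loop-helix repressor present in undifferentiated myoblasts. Its level was 1.502, 0.304 and 0.512 CPM in iPax7 and 0.0875, 0 and 0.237 CPM in iPax3, against 2.24, 19.1 and 34.1 CPM in Emb, 69.2, 38.0 and 31.5 CPM in Fet and 0, 24.8 and 4.81 CPM in Neo. All PSC-derived libraries lay below all Emb and Fet libraries, and Neo replicate 1, with 0 counts, overlapped them. Over the contrast Msc averaged 0.441 ± 0.550 CPM in PSC-derived and 24.9 ± 21.9 CPM in tissue-derived libraries (-6.10 ± 1.24, adjusted p = 0.00173). It was lower in 15 of 15 fits without 1 library and under all 6 other alternatives, with adjusted p from 2.77e-10 to 0.00850. Against single stages Msc was lower in iPax3 than in Emb (-7.36 ± 1.89, adjusted p = 0.0147), Fet (-8.67 ± 2.00, adjusted p = 0.0121) and Neo (-6.45 ± 1.82, adjusted p = 0.0191), and 4, 5 and 3 of 6 fits without 1 library kept these calls. In iPax7 it passed against none of Emb (-4.57 ± 1.65, adjusted p = 0.0742), Fet (-5.88 ± 1.76, adjusted p = 0.0757) and Neo (-3.66 ± 1.59, adjusted p = 0.116), although all iPax7 libraries lay below all Emb and Fet libraries. DESeq2 called Msc lower in iPax7 in each of these comparisons (adjusted p = 0.00795, 0.000586 and 0.0271). Exons of Msc overlap the antisense gene Gm9947, which held 0 counts over Emb, 39 over Fet and 10 over Neo, where Msc held 826, 1728 and 168.

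Isl1 (ENSMUSG00000042258, chromosome 13, 116298281 to 116309689, minus strand) encodes the LIM-homeodomain factor of cardiopharyngeal progenitors. Its level was 1.03, 0.0676 and 0.114 CPM in iPax7 and 0.0175, 0.0238 and 0.0264 CPM in iPax3 (1 count in each iPax3 library), against 84.1, 102 and 75.8 CPM in Emb, 3.46, 10.996 and 15.2 CPM in Fet and 0.141, 7.83 and 0.602 CPM in Neo. Over the tissue stages the means were 87.4 ± 13.5 CPM in Emb, 9.88 ± 5.94 CPM in Fet and 2.86 ± 4.31 CPM in Neo, with Fet and Neo overlapping. Emb libraries lay above all others, and all iPax3 libraries lay below all tissue libraries. Isl1 averaged 0.212 ± 0.400 CPM in PSC-derived and 33.4 ± 41.4 CPM in tissue-derived libraries (-7.00 ± 0.995, adjusted p = 9.45e-05), a call kept in 15 of 15 fits without 1 library and under all 6 other alternatives. In iPax3 it was lower than in Emb (-11.61 ± 1.71, adjusted p = 0.000287), Fet (-8.54 ± 1.54, adjusted p = 0.00209) and Neo (-6.68 ± 1.45, adjusted p = 0.00410). The first of these held in 6 of 6 fits without 1 library, as did the second, and the one against Neo was lost without Neo replicate 2 (-3.43, adjusted p = 0.0895). In iPax7 Isl1 was lower than in Emb (-7.72 ± 1.44, adjusted p = 0.00283) and did not pass against Fet (-4.65 ± 1.26, adjusted p = 0.0516) or Neo (-2.79 ± 1.18, adjusted p = 0.108). Without iPax7 replicate 1, which held 28 of the 32 Isl1 counts of iPax7, it passed against both Fet (-6.78, adjusted p = 0.0153) and Neo (-4.91, adjusted p = 0.0300).

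Across tissue stages Isl1 was lower in Neo than in Emb (-4.93 ± 1.27, adjusted p = 0.0139), in 6 of 6 fits without 1 library. It did not pass between Fet and Emb (-3.08 ± 1.16, adjusted p = 0.126), where the libraries did not overlap, and passed when these 2 groups alone were fitted (-3.01, adjusted p = 0.0168). Of 15 neural markers 9 were tested, and 0 of these were called in Fet against Emb, while 5 were lower in Neo than in Emb, 3 lower in iPax7 than in Emb and 5 lower in iPax3 than in Emb. The sum of the 15 was 116 to 475 CPM in iPax7 and 24.0 to 155 CPM in iPax3, against 431 to 636 CPM in Emb, 147 to 160 CPM in Fet and 56.7 to 102 CPM in Neo. The sensory neuron factor Pou4f1 stood at 68.2, 102 and 34.1 CPM in Emb and the neuronal RNA-binding gene Elavl3 at 61.5, 77.6 and 104 CPM. The motor neuron factors Mnx1 and Lhx3 had 0 counts in Emb replicates 2 and 3, where Isl1 stood at 102 and 75.8 CPM, and 8 and 9 of the 15 neural markers were at 0 there. The part of neural cells in the Isl1 level was not tested.

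Called genes can be read per comparison against the share of all genes called. In iPax3 against Emb, 1 of the 6 was higher and 3 lower, with 17.0% of all genes called (9.34% higher, 7.64% lower). In iPax3 against Fet 0 were higher and 3 lower, with 8.53% called (2.85% higher, 5.68% lower). In iPax3 against Neo 2 were higher and 3 lower, with 22.6% called (11.3% in each direction). For these comparisons the share among the 6 lay above that of all genes, at counts too small to read further. In iPax7 against Emb 1 was higher and 2 lower, with 14.0% called (8.51% higher, 5.54% lower), and in iPax7 against Neo 2 were higher and 1 lower, with 18.2% called (9.83% higher, 8.37% lower). In iPax7 against Fet 0 of the 6 passed by edgeR, with 3.70% of all genes called. DESeq2 called 3 of them there, with 11.0% of all genes called by DESeq2. By edgeR 4 of the 6 had a p under 0.05 before adjustment, as had 17.7% of all genes. The comparisons of iPax7 and of iPax3 with a stage share that stage's libraries.

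Between the PSC-derived groups 0 of the 6 genes passed, by edgeR or by DESeq2, where edgeR called 0.0740% and DESeq2 1.60% of all genes. By edgeR 1 of the 6 had an unadjusted p under 0.05, as had 6.16% of all genes. Isl1 (0.402 ± 0.540 CPM in iPax7 and 0.0226 ± 0.00456 CPM in iPax3) and Msc (0.773 ± 0.640 CPM in iPax7 and 0.108 ± 0.120 CPM in iPax3) had groups that did not overlap. Replicate 1 of iPax7 held the most, with 28 Isl1 and 41 Msc counts, and every other library of these groups held 9 or fewer of either. For Isl1 the separation was 2 counts in each of iPax7 replicates 2 and 3, against 1 in each iPax3 library. For Msc those 2 iPax7 libraries and iPax3 replicate 3 each held 9 counts. The share of all genes without overlap was not taken, so no result is read from this. Tbx1 averaged 8.60 ± 7.62 CPM in iPax7 and 35.2 ± 31.0 CPM in iPax3 (-2.03 ± 1.90), and Pitx3 10.0 ± 9.40 CPM in iPax7 and 4.25 ± 1.66 CPM in iPax3 (1.23 ± 1.39). Spreads of this size do not show that the groups are alike. Between tissue stages the test called 1 of the 6 in Fet against Emb, where 3.65% of all genes were called (2.89% higher, 0.763% lower), 0 in Neo against Fet with 2.37% called, and 2 in Neo against Emb with 20.1% called (11.7% higher, 8.43% lower). The 1 call in Fet against Emb was Pitx3, at least 60.9-fold higher in Fet (adjusted p = 0.0276) or 36.7-fold without Emb replicate 2, and leaving out 1 library kept it in 1 of 6 fits. In Neo against Fet, DESeq2 called 1 of the 6, Pitx3 (adjusted p = 0.00834), with 10.2% of all genes called by DESeq2. By edgeR 1 of the 6 had an unadjusted p under 0.05, as had 19.5% of all genes.

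Levels of different genes were compared per kilobase of exon. In iPax7 Pitx3 led at 6.56 ± 6.16 CPM per kb, before Tbx1 at 2.44 ± 2.17, Msc at 0.304 ± 0.251, Isl1 at 0.102 ± 0.136 and Pitx1 at 0.0975 ± 0.104 CPM per kb. In iPax3 Tbx1 led at 10.00 ± 8.83 CPM per kb, before Pitx3 at 2.79 ± 1.09, with the other 4 genes at or under 0.0425 CPM per kb. Tbx1 and Pitx3 overlapped in both groups, so their order there does not exceed the spread. In Emb Isl1 stood at 22.1 ± 3.41 and Msc at 7.25 ± 6.25 CPM per kb, without overlap, and the other 4 genes averaged at most 0.626 CPM per kb. In Fet Msc stood at 18.2 ± 7.91 CPM per kb, above all values of Pitx3 (3.08 ± 0.571), Isl1 (2.496 ± 1.501) and Pitx1 (2.49 ± 1.30), which overlapped each other. In Neo Pitx1 stood at 7.83 ± 5.21 and Msc at 3.88 ± 5.17 CPM per kb, which overlapped.

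Other genes of the cranial and cardiopharyngeal mesoderm were read from a list of 30, of which 24 passed the filter. In PSC-derived against tissue-derived cells 4 were higher and 12 lower, with a median log2 fold change of -2.24, where 16.4% of all genes tested were higher and 11.7% lower, with a median of 0.29. The 4 higher members are thus a share near that of all genes. The 4 that were higher were Gata4 (9.45 ± 1.29, adjusted p = 0.000210), Tbx20 (6.56 ± 1.09, adjusted p = 0.000534), Hand1 (5.93 ± 1.07, adjusted p = 0.000712) and Eya4 (1.93 ± 0.57, adjusted p = 0.0188). Gata4, Tbx20 and Hand1 are known as heart field and lateral mesoderm factors, but Tbx5, another such factor on the list, was lower (-7.70 ± 1.20, adjusted p = 0.000218), and Hand2 (-2.91 ± 1.35, adjusted p = 0.119) and Gata6 (-2.48 ± 1.36, adjusted p = 0.188) did not pass. All but Gata4 of these were named after their values were seen. Gata4 stood at 0.769, 9.15 and 5.41 CPM in iPax7 and 9.50, 6.98 and 7.85 CPM in iPax3, against 1 count over all 9 tissue libraries. Gata4 had 0 counts in Emb and Neo and Tbx20 0 in Emb, so the sizes of their fold changes depend on the prior count. Of 8 cardiac muscle markers 5 were tested, and 0 of these were called higher and 1 lower. Their median log2 fold change was 0.58, against 0.29 for all genes. The 8 summed to 17.5 to 28.5 CPM in iPax7, 1.16 to 14.2 CPM in iPax3 and 0 to 22.4 CPM in tissue libraries. So few tested markers do not show whether the list rose or not.

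The lower genes of that list were led by Foxc1, a forkhead factor of paraxial and head mesoderm (-4.19 ± 0.39, adjusted p = 1.15e-06), Ebf3 (-5.77 ± 0.54, adjusted p = 2.18e-06), the mesenchymal factor Twist1 (-5.73 ± 0.63, adjusted p = 1.06e-05), Ebf1 (-6.60 ± 0.71, adjusted p = 1.11e-05) and Ebf2 (-6.72 ± 0.99, adjusted p = 0.000178).

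A list of 14 somite and trunk muscle genes, of which 13 passed the filter, had 2 members higher and 8 lower in PSC-derived cells, with a median log2 fold change of -4.39, against the same shares of all genes. Meox2 (-9.12 ± 0.81, adjusted p = 7.81e-07), Meox1 (-4.92 ± 0.66, adjusted p = 4.95e-05), Lbx1, which marks migrating limb muscle precursors (-7.56 ± 1.20, adjusted p = 0.000247), and Pax1, a sclerotome gene (-5.60 ± 0.93, adjusted p = 0.000461), led it. The genes that were higher were Pax3, the induced factor of the iPax3 cells, and the receptor gene Met. Pax3 averaged 2.30 ± 1.34 CPM in iPax7 and 331 ± 32.1 CPM in iPax3, against 95.6 ± 39.4 CPM in Emb, 4.90 ± 2.76 CPM in Fet and 1.45 ± 2.15 CPM in Neo. In iPax7 it was lower than in Emb (-5.37 ± 0.83, adjusted p = 0.000739), so its pooled call rests on the iPax3 libraries. Cranial and somite lists thus both held more lower than higher members, and neither count was tested against the other.

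**Figure D2:**
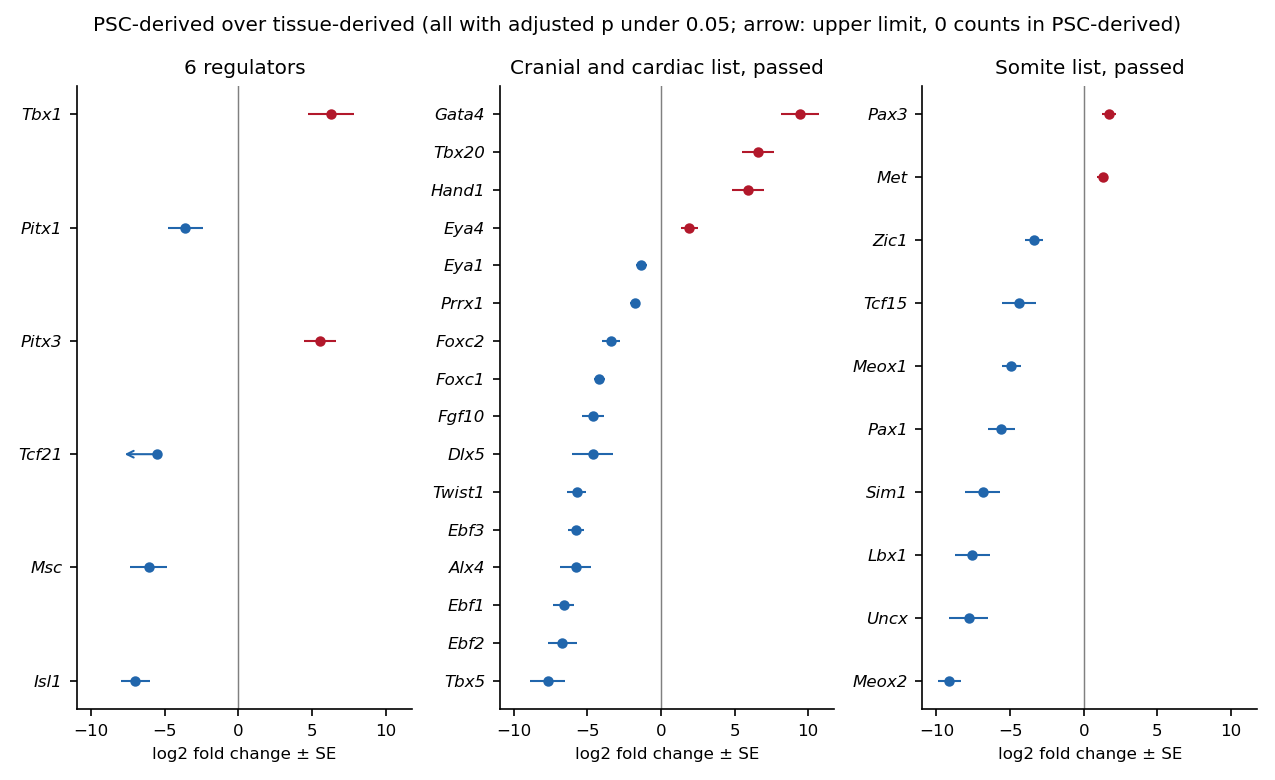
Log2 fold change of PSC-derived over tissue-derived libraries (± standard error) for the 6 genes and for those members of the cranial and cardiac list and of the somite list that passed the test (adjusted p under 0.05). Tbx1 and Pitx3 lie right of 0 with Gata4, Tbx20 and Hand1, and Tcf21, with 0 counts in PSC-derived cells, is drawn at its limit of at least 45.4-fold lower with an arrow.

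The genes most alike in pattern were taken by Pearson's r of log2 CPM over the 15 libraries, among 12364 named genes with a mean of at least 5 CPM in any group, leaving out predicted genes and pseudogenes. Such an r describes these libraries, which share groups and depth, and is given with no test. Tbx1 was most alike to Bend6 (r = 0.953), Nol4 (r = 0.946) and Eif4g2 (r = 0.944), and Pitx3 to Cited1 (r = 0.961), Lrp1b (r = 0.955) and Csdc2 (r = 0.953). Cited1 averaged 5.47 CPM in iPax7, 5.44 CPM in iPax3, 0 CPM in Emb, 4.70 CPM in Fet and 0 CPM in Neo, an order close to that of Pitx3. For Pitx1 the genes were Clec4a2 (r = 0.976), Adgrd1 (r = 0.972) and Prelp (r = 0.968), and for Msc Gpr27 (r = 0.959), Slc14a1 (r = 0.957) and Cacng4 (r = 0.943). For Isl1 they were Hoxaas2 (r = 0.963), Tfap2b (r = 0.963) and Nr2f1 (r = 0.954), and for Tcf21, among 12365 genes, Hoxd3 (r = 0.905), Ube2e3 (r = 0.865) and Grm8 (r = 0.847). Tcf21 had at least 1 count in 5 of the 15 libraries, so its r rests on those.

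Single-cell data gave a separate view of 2931 iPax3 cells (41625326 UMIs, median 11716 a cell) and 579 adult cells (7906996 UMIs, median 10765). With 1 sample a group there is no test between them, and intervals cover counting error only. Pax7 had a UMI in 74.4% of adult cells and in 0.0682% of iPax3 cells. Myog had one in 51.8% of iPax3 cells and 5.18% of adult cells, and Pax3 in 76.7% of iPax3 cells and 4.32% of adult cells. Levels are UPM, the UMIs of a gene scaled to 1000000 UMIs of all cells in the sample. These markers were as high or nearly so in barcodes of at most 100 UMIs, which hold mostly free RNA: Pax7 stood at 146 UPM in adult cells, against 179 UPM in such barcodes, and in the iPax3 matrix Myog stood at 124 UPM in cells, against 125 UPM, and Pax3 at 164 UPM, against 133 UPM. A UMI of a marker in a single cell does not therefore show that the cell expressed it. The 2 matrices shared 1 cell barcode. A second deposit labelled iPax3 held 3327 cells in its part with barcode suffix 2, among them all 2931 barcodes of the first with a median of 3.47 times their UMIs, and 577 of the 590 cells in its part with suffix 1 shared barcodes with the adult cells. Those 577 shared adult barcodes held a median of 0.699 times their UMIs in the first deposit, so fewer and not more. Because of the shared barcodes the second deposit was taken as data of the same cells and counted as no further sample. How it was made was not given in the sources used here.

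Tbx1 and Pitx3 were found in iPax3 cells and almost absent from adult cells, and Msc the reverse. Tbx1 stood at 8.0 UPM (95% Poisson interval 7.16 to 8.91, 333 UMIs in 287 cells) in iPax3 cells, against 0.253 (0.0306 to 0.914, 2 UMIs) in adult cells, a ratio of 31.6 with an interval of 8.69 to 262. Pitx3 stood at 17.9 UPM (16.6 to 19.2, 744 UMIs in 605 cells) in iPax3 cells, against 0.126 (0.00320 to 0.705, 1 UMI) in adult cells, a ratio of 141 with an interval of 25.3 to 5590. Msc stood at 0.0961 UPM (0.0262 to 0.246, 4 UMIs) in iPax3 cells, against 24.8 (21.4 to 28.5, 196 UMIs in 138 cells) in adult cells, a ratio of iPax3 over adult of 0.00388 with an interval of 0.00105 to 0.0101.

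The other 3 genes gave next to nothing. Pitx1 had 0 UMIs in iPax3 cells, which allows up to 0.0721 UPM, and 1 UMI in adult cells. Isl1 had 2 UMIs in iPax3 cells and 0 in adult cells, where the interval runs up to 0.467 UPM. Tcf21 had 0 UMIs in both. Their difference between the samples was not detectable at this depth.

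**Figure D3:**
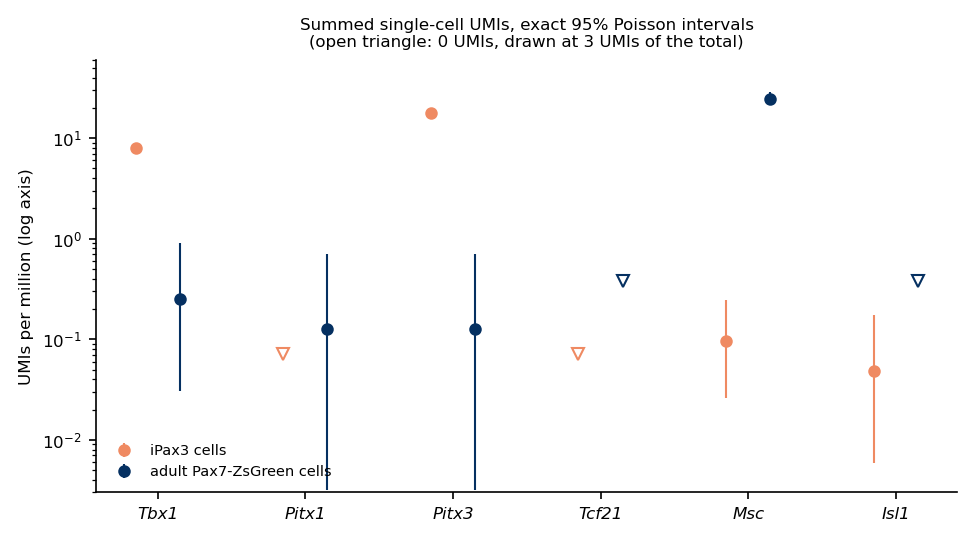
Summed level in UPM (UMIs per 1000000, log axis) of the 6 genes in iPax3 cells and in adult Pax7-ZsGreen cells, with exact 95% Poisson intervals; an open triangle marks 0 UMIs, drawn at the level of 3 UMIs. Tbx1 and Pitx3 lie higher in iPax3 cells (8.0 and 17.9 UPM) and Msc in adult cells (24.8 UPM).

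Shares of cells depend on depth and on free RNA. Pitx3 had a UMI in 20.6% of iPax3 cells (95% exact binomial interval 19.2% to 22.2%) and in 0.173% of adult cells, and Tbx1 in 9.79% and 0.345%, while Msc had one in 0.136% of iPax3 cells and 23.8% of adult cells, at the median depths given above. Thinned to 2000 UMIs a cell, with 0 cells left out, the shares in iPax3 cells were 4.20% for Pitx3, 1.09% for Tbx1 and 0.0341% for Msc, and those in adult cells 0% for Pitx3 and Tbx1 and 3.45% for Msc. In the suffix 2 part of the second deposit (3327 cells, median 39956 UMIs) Pitx3 had a UMI in 61.1% of cells and Tbx1 in 26.9%. Pitx3 stood at 26.9 UPM there, outside its interval of 16.6 to 19.2 in the first deposit, while Tbx1 stood at 7.82 UPM, inside its own. Thinned alike, Pitx3 stood at 29.2 UPM, against 21.7 in the first. Myog and Myod1 stood at 252 and 53.2 UPM, against 124 and 26.4. In barcodes with at most 100 UMIs Pitx3 stood at 14.8 and Tbx1 at 0.924 UPM in the iPax3 matrix (32 and 2 UMIs), and Msc at 32.6 UPM in the adult matrix (16 UMIs). Pitx3 in such barcodes was thus close to its level in cells, and single UMIs of Pitx3 in a cell do not show that the cell expressed it. For Tbx1 the 2 UMIs are too few to read. In the second deposit Tbx1 had 19 UMIs in such barcodes, at 5.42 UPM, against 7.82 UPM in cells, so the same limit applies to Tbx1.

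Within iPax3 cells the levels of Pitx3 and Tbx1 were read in cells with and without a UMI of a myogenic gene. Free RNA limits this split: in the iPax3 matrix Myog stood at 124 UPM in cells, against 125 UPM in barcodes of at most 100 UMIs, Myod1 at 26.4, against 20.3, Myf5 at 14.1, against 9.70, and Des at 138, against 105. Pitx3 stood at 21.8 UPM (19.97 to 23.7) in the 1517 cells with a Myog UMI, against 12.4 (10.8 to 14.2) in the 1414 without, and at 25.4 (22.6 to 28.5) in cells with a Myod1 UMI, against 15.02 (13.7 to 16.5) in those without. For Myf5, a gene of earlier progenitors, the order was turned: Pitx3 stood at 13.4 (11.2 to 15.9) in the 465 cells with a UMI, against 19.2 (17.7 to 20.8) in cells without. Tbx1 stood at 6.99 UPM (5.97 to 8.12) in cells with Myog, against 9.40 (8.02 to 10.96) in those without, where the intervals overlapped, and at 10.54 (8.58 to 12.8) in cells with Myf5, against 7.25 (6.35 to 8.24) in those without. By Pax3 the intervals overlapped for both genes. Cells with a UMI of a marker were deeper (median 13160 UMIs with Myog, against 10724.5 without), UPM is scaled to the UMIs of the same cells, and cells of 1 sample are not replicates.

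**Figure D4:**
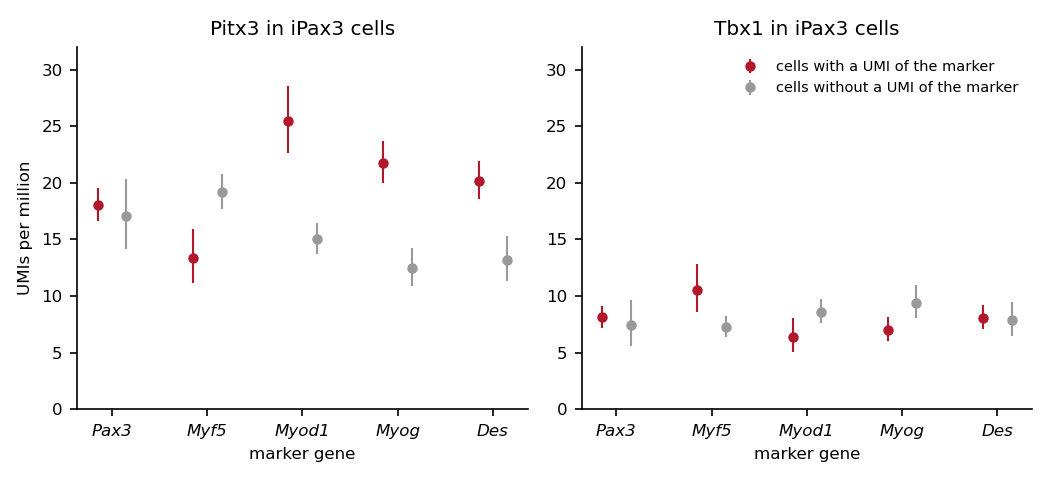
UPM of Pitx3 (left) and Tbx1 (right) in iPax3 cells with (red) and without (grey) a UMI of Pax3, Myf5, Myod1, Myog or Des, with exact 95% Poisson intervals. Pitx3 lies higher with Myod1, Myog and Des and lower with Myf5, and Tbx1 lies higher with Myf5, while its intervals by Myog overlap.

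The deeper suffix 2 part of the second deposit gave the same order for Pitx3. Pitx3 stood at 27.1 UPM in cells with Myog, against 14.7 in those without, and at 22.1 in cells with Myf5, against 35.1 without. For Tbx1 the Myf5 order also stood (8.51 with, against 6.63 without), and the Myog order was turned: 7.84 with, against 6.51 (3.92 to 10.2) in the 120 cells without. In the authors' deposited table of 7 iPax3 clusters, cluster 1 had the highest scaled mean UMI count of Myog (5.68, against 0.405 to 0.901 in the others), the highest of Pitx3 (0.465, against 0.120 to 0.225) and the lowest of Tbx1 (0.0383, against 0.0401 to 0.154). In the authors' deposited table of 2 adult clusters Msc stood at 0.268 in cluster 1 and 0.227 in cluster 2. These clusters were made from the same cells, so their values describe and do not test the pattern.

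In adult cells no difference in Msc was detectable between those with and without a UMI of the satellite cell gene Pax7: it stood at 24.9 UPM (21.3 to 29.0) in the 431 cells with a Pax7 UMI, against 24.0 (15.9 to 34.6) in the 148 without, an interval that leaves room for a difference either way. Pax7 itself was no lower in barcodes of at most 100 UMIs than in cells, so the split may not separate expressing cells. By Myod1 it stood at 26.3 (22.6 to 30.6) with, against 17.2 (10.9 to 25.8) without, and these intervals overlapped. The level of Msc in barcodes of at most 100 UMIs, 32.6 UPM, was as high as in cells, so its spread over cells without Pax7 UMIs may not be read as expression there.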

How the data were processed

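The deposited bulk files hold counts of reads per gene; per the submitters' processing notes the tools were CASAVA 1.8, HISAT2 2.0.2, Subread featureCounts 1.4.6 and Cell Ranger 2.2.0, with build mm10, and the strand setting and annotation release were not given in the sources used here. The single-cell matrices deposited by the authors hold UMI counts for all barcodes, and the authors' deposited table of clusters gives scaled mean UMI signal per cell.

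The 6 genes and all lists were chosen with earlier results of these data known. Symbols came from the deposited single-cell gene table and coordinates from GENCODE M21. Genes were kept by edgeR 4.0.16 (filterByExpr), leaving 17571 of 47728, scaled by TMM and tested with its robust quasi-likelihood test over all 15 libraries in 11 comparisons, with Benjamini-Hochberg adjustment at 0.05 over all genes tested (R 4.3.3). Standard errors were taken from the fold change and its test. Log2 CPM used a prior count of 2. Where a group had 0 counts, a floor of 3 counts over the group gave the bound, also without 1 library, on the library sizes of the fit to all 15. Named beside the 6 genes were the 3 genes most alike to each, and up to 6 and 4 genes of the lists by smallest adjusted p; 1 further gene that the rule names is not reported here. The test was checked on simulated counts.

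Replicate numbers in the labels did not pair the libraries, so no replicate block entered the test. Chi-square per degree of freedom between libraries of a group was 7.70 or more, so none was counted as a repeat. Cells were barcodes above 10% of the 99th percentile of the 3000 largest, with at least 500 UMIs and under 10% mitochondrial UMIs; no doublet caller was run. Poisson and binomial intervals are exact and cover counting error only. Alternatives were RLE size factors, no filter, DESeq2 1.42.0, a replicate block, the 2 groups alone and leaving out each library, with 3 others chosen after seeing the data.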

Additional observations from a re-analysis of the deposited data

How the results depend on the processing

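Of 822 fold changes of the 6 genes recomputed under an alternative, 714 kept their side of the threshold, 81 lost their call, 27 gained one and 0 called ones reversed. Counting those not called as well, 6 fold changes changed sign. The number of the 6 genes called moved with the setting where few were called. In iPax7 against Fet it was 1 with RLE size factors, 2 with no low-count filter, 3 with DESeq2, 1 with only the compared groups and 1 without the 3 libraries that stand apart, in place of 0. In iPax7 against Neo it was 5 with DESeq2 and 1 with only the compared groups, in place of 3. With only the compared groups it was also 3 in iPax3 against Neo and 1 in iPax7 against Emb. In these fits of the compared groups some genes were left out by the low-count filter and were not tested. They were Msc and Isl1 in iPax3 against Neo, Pitx3 and Tcf21 in iPax7 against Emb, and Tbx1 and Pitx3 in iPax7 against Neo. Their calls were thus not put to the test there. DESeq2 gave 2 in Fet against Emb and 1 in Neo against Fet, and Neo against Fet also gave 1 without the 3 libraries. The causes of the other moves were not tested. Apart from the DESeq2 shares given above, the share of all genes called in these fits, and in those below, is not given here. A move in the number called is therefore not read as a result about the 6 genes.

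Leaving out 1 library gave 4 to 6 called when PSC-derived groups were set against all tissue groups, 2 to 5 in iPax3 against Emb, 1 to 3 in iPax3 against Fet, 1 to 3 in iPax3 against Neo, 2 to 4 in iPax7 against Emb, 0 to 1 in iPax7 against Fet, 0 to 4 in iPax7 against Neo, 0 to 2 in Fet against Emb, 2 in Neo against Emb, and 0 in Neo against Fet and in iPax7 against iPax3.

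Libraries of the same replicate number correlated at -0.331 to 0.0767, so the numbers were not taken to pair the libraries. With the replicate block 1 gene was called in iPax7 against Neo, 0 in Fet against Emb and 5 in the contrast. RLE in place of TMM shifted the median of all genes by -0.23 in iPax3 against Neo, with smaller shifts elsewhere. Genes with few counts in a library, chiefly Tcf21 and every gene in Fet replicate 1, are limited by depth.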

Other observations

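In the deeper sequencing of the iPax3 cells Msc had 19 UMIs, Pitx1 5, Isl1 6 and Tcf21 0, over 3327 cells.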
